A study of Mus musculus with 16 samples.

Results

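The Hox cluster genes were the 39 genes whose name on the array was Hoxa, Hoxb, Hoxc or Hoxd followed by a number. They were found among the 36711 genes of the fit, and 32 of the 39 were also in the deposited gene matrix. Hox genes encode homeodomain transcription factors and lie in 4 clusters, in which the paralog number gives the place of a gene along its chromosome. In the embryo, genes with low numbers are switched on first and nearer the head, and those with high numbers later and nearer the tail. In the adult gut this order persists in part, and the posterior Hox genes are known as markers of the colon and of the level along the intestine.

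Colon RNA was measured in 16 RjOrl:SWISS pups at weaning on 1-colour Agilent mouse arrays, 1 array per pup. The 8 CSD pups came from hysterectomies and were nursed by foster mothers with a recent vaginal birth. The 8 VD pups were born vaginally and also raised by another mother, since their litters were swapped between dams. The labels give a mother for each pup, and the study's methods took the biological mother as a random effect. By these labels the CSD pups belonged to mothers 3 and 4 (4 pups each, 4 females and 4 males in all), and the VD pups to mother 5 (5 pups, 2 of them females) and mother 6 (3 males). Each of the 2 slides held 4 CSD and 4 VD pups. Since each mother contributed to a single group, litter and delivery mode cannot be fully told apart. SWISS mice are outbred. The sources used here do not say from which stretch of the colon the RNA was taken. Levels are log2 intensities after background correction and quantile normalisation, and differences are CSD minus VD on the log2 scale. As a check of the tissue, 10 of 10 colon markers were measured (detected in all pups of either delivery mode or of both), among them Car1. Of 11 small intestine markers on the array 4 were measured, namely Fabp6, Fabp2, Lyz1 and Mttp. Apoa4, Apoa1, Apob, Sis, Lct, Alpi and Defa24 were not well above background on every array of either group. Whether each marker is confined to its part of the gut was not tested.

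The probes of the 4 clusters lay at chr6:52105594-52209039 (HoxA, 11 genes), chr11:96057854-96228510 (HoxB, 10 genes), chr15:102759058-102867272 (HoxC, 9 genes) and chr2:74509248-74603059 (HoxD, 9 genes) of mm9. The 39 genes were read by 51 probes of 60 bases. Paralogs resemble each other most in the homeobox, so the probes were compared. The longest exact stretch that a probe had in common with a probe of another Hox gene was between 7 and 12 bases. Probes were compared with probes only, not with the transcripts of the paralogs, so binding of a paralog's RNA was not tested. The probes of the 3 genes below lie in the coding sequence of the homeobox and carry the results given further on. Capitals mark the longest stretch in common with a probe of another Hox gene, which was Hoxc12 for Hoxd10, Hoxd8 for Hoxd11 and Hoxc13 for Hoxa13.
Hoxd10, chr2:74532280-74532339, plus strand: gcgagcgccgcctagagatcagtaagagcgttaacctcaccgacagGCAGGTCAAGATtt
Hoxd11, chr2:74522028-74522087, plus strand: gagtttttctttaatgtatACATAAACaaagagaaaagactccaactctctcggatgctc
Hoxa13, chr6:52208980-52209039, minus strand: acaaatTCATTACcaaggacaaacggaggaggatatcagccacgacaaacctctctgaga

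Which Hox genes the colon of these pups expressed was examined first. A gene was taken as measured when a probe of it was well above background, by the mark of the scanner software, on all 8 arrays of the CSD pups, of the VD pups or of both. By this rule 26 of the 39 Hox genes were measured. They were 10 of 11 in HoxA, 8 of 10 in HoxB, 1 of 9 in HoxC and 7 of 9 in HoxD. Along the paralog order, 5 of 8 anterior genes (paralogs 1 to 3), 10 of 15 central genes (4 to 8) and 11 of 16 posterior genes (9 to 13) were measured. In HoxC, Hoxc4 was well above background on 14 of 16 arrays, Hoxc6 on 4, Hoxc5, Hoxc9 and Hoxc10 on 2 each, Hoxc8 on 1, and Hoxc11, Hoxc12 and Hoxc13 on 0. In HoxD, Hoxd1 and Hoxd3 were on 0 arrays, whereas Hoxd4 and every gene from Hoxd8 to Hoxd13 were on all 16. Hoxb1, the most anterior gene of its cluster, was on 0 arrays and Hoxb8 on 7. Hoxa4, with 13 arrays, was the only HoxA gene that was not measured. For the genes that were not measured no difference is read, since they were not above background throughout either group.

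**Figure D1:**
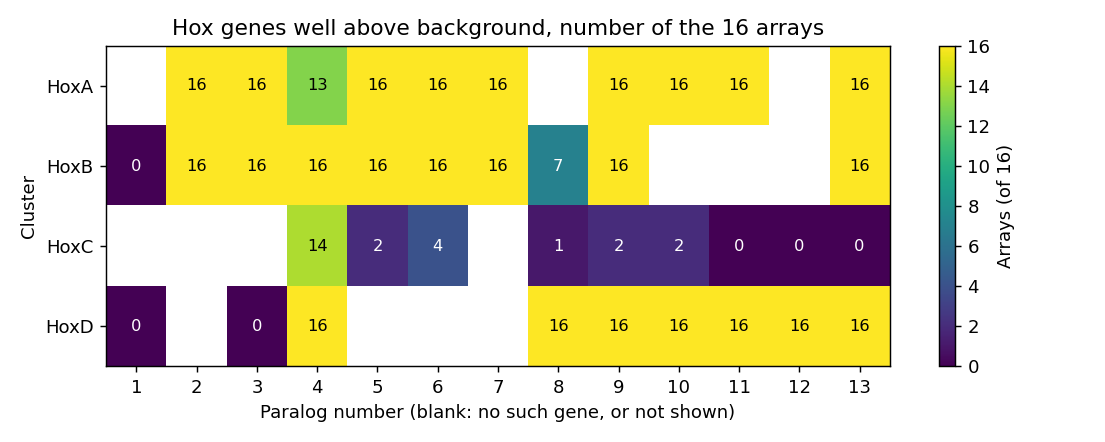
Number of the 16 arrays on which each Hox gene was well above background, with the 4 clusters as rows and the paralog number as columns (blank squares hold no gene or one not shown). HoxC was well above background on few arrays beyond Hoxc4 (14 arrays), while HoxA from 5 to 13 and HoxD from 8 to 13 were detected on all 16.

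Paralog group 13, the most posterior, was detected through 3 of its 4 members. Hoxb13, a homeobox gene of hindgut and prostate, had a mean of 16.64 ± 0.11 in CSD and 16.78 ± 0.15 in VD pups (SD, n = 8 each). Hoxd13, best known for its role in limb and hindgut patterning, had a mean of 12.94 ± 0.18 in CSD and 12.99 ± 0.27 in VD pups. Hoxa13, which is needed for the formation of the hindgut and its openings, had a mean of 10.59 ± 0.16 in CSD and 10.15 ± 0.29 in VD pups. Hoxc13, a gene of hair and nail, was not well above background on any array. The transcripts antisense to or between the coding genes were examined apart. Of 11 such genes, Hoxa11os, Hoxaas2, Hoxaas3, Hoxb5os, Hottip, Haglr and Mira were on all 16 arrays, and HOTAIR of the HoxC cluster, Hoxd3os1, Hotairm2 and Evx1os were on 0. Where transcripts overlap or run into a neighbour, their signals cannot be separated at a probe.

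The comparison of CSD with VD pups asked which Hox genes differed with delivery mode. By limma (a model of delivery mode and sex with the mother as random effect, Benjamini-Hochberg adjusted p under 0.05 over all genes) 0 of the 39 Hox genes were called. Of all 36711 genes 460 were called, which is 1.25%. With an unadjusted p under 0.05 there were 5 of 39 Hox genes (12.8%), against 14.5% of all genes, and 4 of the 26 measured Hox genes (15.4%), against 21.4% of all measured genes. The share among Hox genes was thus no higher than the background by either count. Of the 26 measured genes 11 had higher and 15 had lower means in CSD pups after adjustment for sex. The median of their differences was -0.02, with 0.0043 for all measured genes, and the median size of their differences was 0.09, with 0.07 for all measured genes. The pups of both groups overlapped for every Hox gene (0 of 39 without overlap, with 0.493% of all genes). The litter means of both CSD mothers lay on the same side of those of both VD mothers for 20 of 39 Hox genes (51.3%), with 42% of all genes.

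By cluster, all 7 measured HoxD genes had lower fitted means in CSD pups, with differences from -0.46 to -0.0023 and a median of -0.21, and 1 of them had an unadjusted p under 0.05. In HoxA 7 of 10 measured genes had higher fitted means in CSD (median 0.06), and in HoxB 3 of 8 (median -0.04). The sign turned under 14 of 37 alternatives for Hoxd13, under 4 for Hoxd11 and under 1 for Hoxd12, and on slide 2 alone these 3 of the 7 genes were higher in CSD pups. None of the 7 HoxD genes passed the adjusted test.

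**Figure D2:**
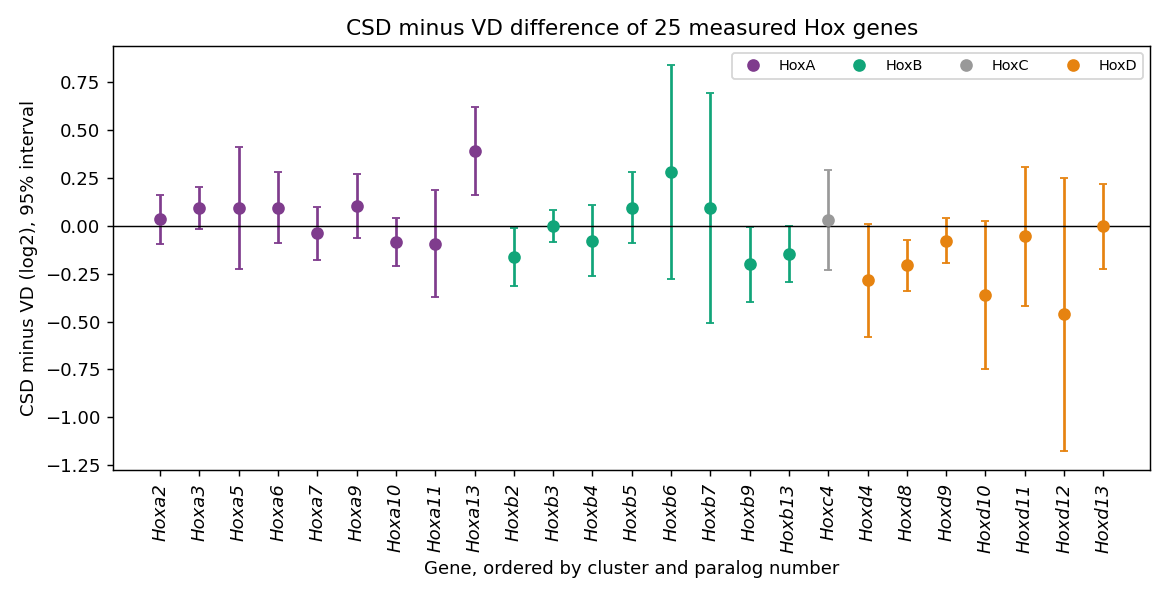
CSD minus VD difference (log2) of 25 of the 26 measured Hox genes with its 95% interval from limma, ordered by cluster and paralog number. The 7 HoxD points lie at or under 0, Hoxa13 lies highest at 0.39, and the widest interval is that of Hoxd12.

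Hoxa13 had the smallest p among the Hox genes. Its values in CSD pups ran from 10.37 to 10.89 with a median of 10.56. In VD pups they ran from 9.85 to 10.73 with a median of 10.06. The lowest CSD pup lay above every VD pup but 1: VD pup 5, at 10.73, lay within the CSD values. The difference was 0.39 (SE 0.11, 95% interval 0.16 to 0.62), with an adjusted p of 0.090 by limma (unadjusted 0.0023). An exact permutation test on the difference of means (two-sided), over 12870 assignments of pups that ignore litter and sex, gave p = 0.0034. Without VD pup 5 the difference was 0.49 with an adjusted p of 0.029 by limma, and without any other single pup it lay between 0.33 (without VD pup 4) and 0.42, with adjusted p values between 0.075 and 0.24. On slide 1 alone it was 0.26 and on slide 2 alone 0.52.

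Hoxd8, a central gene of its cluster, had a lower mean in CSD pups. In CSD pups it ran from 7.54 to 7.91 with a median of 7.70, and in VD pups from 7.79 to 8.13 with a median of 7.99. Of the CSD pups 6 lay below every VD pup. The difference was -0.21 (SE 0.06, 95% interval -0.34 to -0.07), with an adjusted p of 0.12 by limma (unadjusted 0.0046). Without adjustment for sex its 2 probes differed by -0.20 and -0.26, and the gene by -0.23. Without the 3 pups of mother 6 the difference was -0.26 with an adjusted p of 0.0090 by limma, in a fit that called 2265 of all genes in place of 460. Without the pups of mothers 3, 4 and 5 it was -0.21, -0.22 and -0.10, with adjusted p values of 0.20, 0.28 and 0.67. On slide 1 alone it was -0.29 and on slide 2 alone -0.12.

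Among the other measured genes the smallest p were those of Hoxb2, Hoxb9, Hoxb13, Hoxd4, Hoxd10 and Hoxa3. Hoxc5, Hoxb8 and Hoxc10, named here after their values were seen, had p values in the same range but were not measured, and Hoxc5 is among the 5 of 39 counted above. Hoxb2, a gene of hindbrain patterning, differed by -0.16 (95% interval -0.32 to -0.01) with an adjusted p of 0.30 by limma. Hoxb9 differed by -0.20 (-0.40 to -0.01), with 0.0279 on slide 2 alone. Hoxb13 differed by -0.15 (-0.29 to 0.00) and Hoxd4 by -0.28 (-0.58 to 0.01). Over 37 alternatives the difference ran from -0.37 to -0.06 for Hoxb2 and from -0.43 to 0.03 for Hoxb9. It ran from -0.23 to -0.08 for Hoxb13 and from -0.47 to -0.15 for Hoxd4. Hoxa3, a gene of pharyngeal development, differed by 0.09 (-0.02 to 0.20). The adjusted p values of these 5 genes lay between 0.30 and 0.45. Hoxb3 was the gene whose probes disagreed. Without adjustment for sex 1 probe was higher in CSD by 0.15, and the others differed by -0.07 and -0.04. The gene value was 0.0124 without this adjustment and -0.0018 with it. Hoxc4 (0.03, -0.23 to 0.29) was the only measured gene of HoxC, and its interval includes 0. Among the antisense genes Hoxb5os had a difference of -0.41 (adjusted p = 0.25 by limma), and its probes differed by -0.76 and -0.06.

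The spread between single pups was described next. The range over the 16 pups had a median of 0.66 for the 26 measured Hox genes, with 0.44 for the 21458 measured genes that had a value on every array. The widest ranges were those of Hoxd12 (2.36), Hoxb7 (1.88) and Hoxb6 (1.61), and that of Hoxd10 was 1.56. Each was above the range of at least 96.1% of measured genes.

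Hoxd12, one of the posterior genes that pattern limb and hindgut, had a gap in its values. In 5 pups it was low, namely VD pup 4 (8.16), CSD pup 7 (8.35), CSD pup 5 (8.41), CSD pup 3 (8.66) and CSD pup 2 (8.83). In the other 11 pups it ran from 9.74 in VD pup 7 to 10.53 in VD pup 9. The gap of 0.91 was 38.5% of the whole range, and no other measured Hox gene had a gap of more than 24.3% of its range with at least 4 pups on each side. The low pups were 4 CSD pups and 1 VD pup, 4 of the 5 were females, and they came from 3 of the 4 mothers and from both slides. The group means were 9.30 ± 0.81 in CSD and 9.99 ± 0.78 in VD pups (SD, n = 8 each), and the difference adjusted for sex was -0.46 (95% interval -1.18 to 0.25, adjusted p = 0.58 by limma). It was -1.03 on slide 1 and 0.13 on slide 2, so the sign did not hold within slides. Without CSD pup 7 it was -0.18, without VD pup 5 -0.22 and without VD pup 4 -0.75.

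The neighbours of Hoxd12 were low in the same pups. Hoxd10 was 7.995 in VD pup 4, 8.11 in CSD pup 7, 8.12 in CSD pup 5, 8.31 in CSD pup 2 and 8.60 in CSD pup 3, and between 8.71 and 9.55 in the others. Hoxd13 was 12.38 in VD pup 4 and between 12.74 and 12.85 in the 4 low CSD pups, with 12.91 to 13.21 in the others. Hoxd9 and Hoxd11 are named here after their values were seen. The 5 lowest pups of Hoxd9, Hoxd10, Hoxd12 and Hoxd13 were the same pups, and Hoxd11 had 4 of them among its 5 lowest. These sets were read from the values and are given as a description. Hoxd10 differed between the groups by -0.36 (95% interval -0.75 to 0.03, adjusted p = 0.39 by limma), with -0.66 on slide 1 and -0.06 on slide 2, and single pups moved it to between -0.55 (without VD pup 4) and -0.23 (without VD pup 5). Hoxd9 differed by -0.08, Hoxd11 by -0.06 and Hoxd13 by -0.0023, with intervals that include 0, and the difference of Hoxd9 lay between -0.12 (without VD pup 4) and -0.04 (without CSD pup 7) when single pups were left out.

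**Figure D3:**
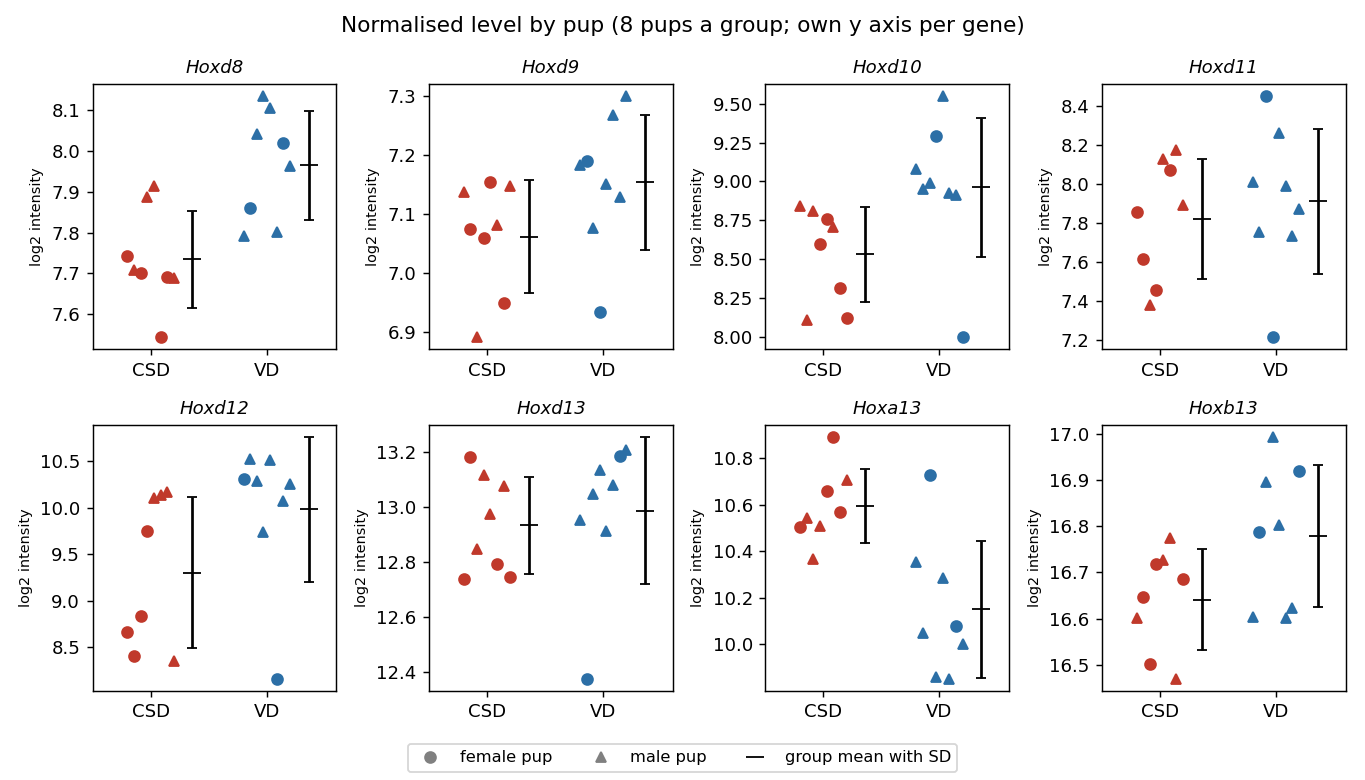
Normalised level (log2 intensity, own axis per gene) of 8 Hox genes in each pup, with circles for females, triangles for males and the group mean with SD beside the points. VD pup 4 is the lowest VD point of Hoxd9 to Hoxd13, CSD pups fall into a low and a high set for Hoxd12, and 6 CSD pups lie below every VD pup for Hoxd8.

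To describe how the Hox genes varied together, the correlation over the 16 pups was computed for the 300 pairs of the 25 measured genes other than Hoxd12, which was left out because of its gap. All points share the normalisation of their array. After Benjamini-Hochberg adjustment over the 300 permutation p values (100000 permutations, two-sided) 19 pairs passed (6.33%), 16 with a positive and 3 with a negative r. Of the 88 pairs within a cluster 13 passed (14.8%), and of the 212 pairs between clusters 6 (2.83%). Within HoxD 6 of 15 pairs passed, within HoxA 5 of 45 and within HoxB 2 of 28. The share over pairs of all measured genes was not computed, so these counts are a description. High r was common on these arrays: Hoxb7, with r of 0.60 to Hoxd10, had only rank 615 of 21456 other measured genes.

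The 6 HoxD pairs were all those among Hoxd9, Hoxd10, Hoxd11 and Hoxd13. For Hoxd10 and Hoxd13 r was 0.84 and rho 0.79 (permutation p = 2.0e-05 and 0.00034, adjusted p of r = 0.0030, n = 16). For Hoxd11 and Hoxd13 r was 0.86 and rho 0.87 (permutation p = 1.0e-05, the smallest that these permutations can give, and 2.0e-05, adjusted p of r = 0.0030, n = 16). For Hoxd10 and Hoxd11 r was 0.85 and rho 0.67 (permutation p = 6.0e-05 and 0.0054, adjusted p of r = 0.0036, n = 16). Leaving out the 2 pups farthest from the median of the first gene gave r of 0.79, 0.80 and 0.79 in this order. Within CSD pups the 3 values were 0.81, 0.77 and 0.95, within VD pups 0.95, 0.91 and 0.91, on slide 1 0.76, 0.77 and 0.86, and on slide 2 0.89, 0.94 and 0.83. After subtraction of each litter's mean they were 0.92, 0.86 and 0.93.

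In the 11 pups with high Hoxd12, a set read from the values, r was 0.49 for Hoxd10 and Hoxd13, 0.70 for Hoxd11 and Hoxd13 and 0.47 for Hoxd10 and Hoxd11. The 5 pups left out there were the lowest in Hoxd10 and in Hoxd13, which narrows the range of both genes, so these lower values are a description and do not show that the relations rest on those pups. Hoxd12 itself had r of 0.60 with Hoxd10 and 0.39 with Hoxd13 in these 11 pups. Toward the anterior end of the cluster the likeness to Hoxd10 was lower: r was 0.86 for Hoxd9, 0.60 for Hoxd8 and 0.19 for Hoxd4.

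**Figure D4:**
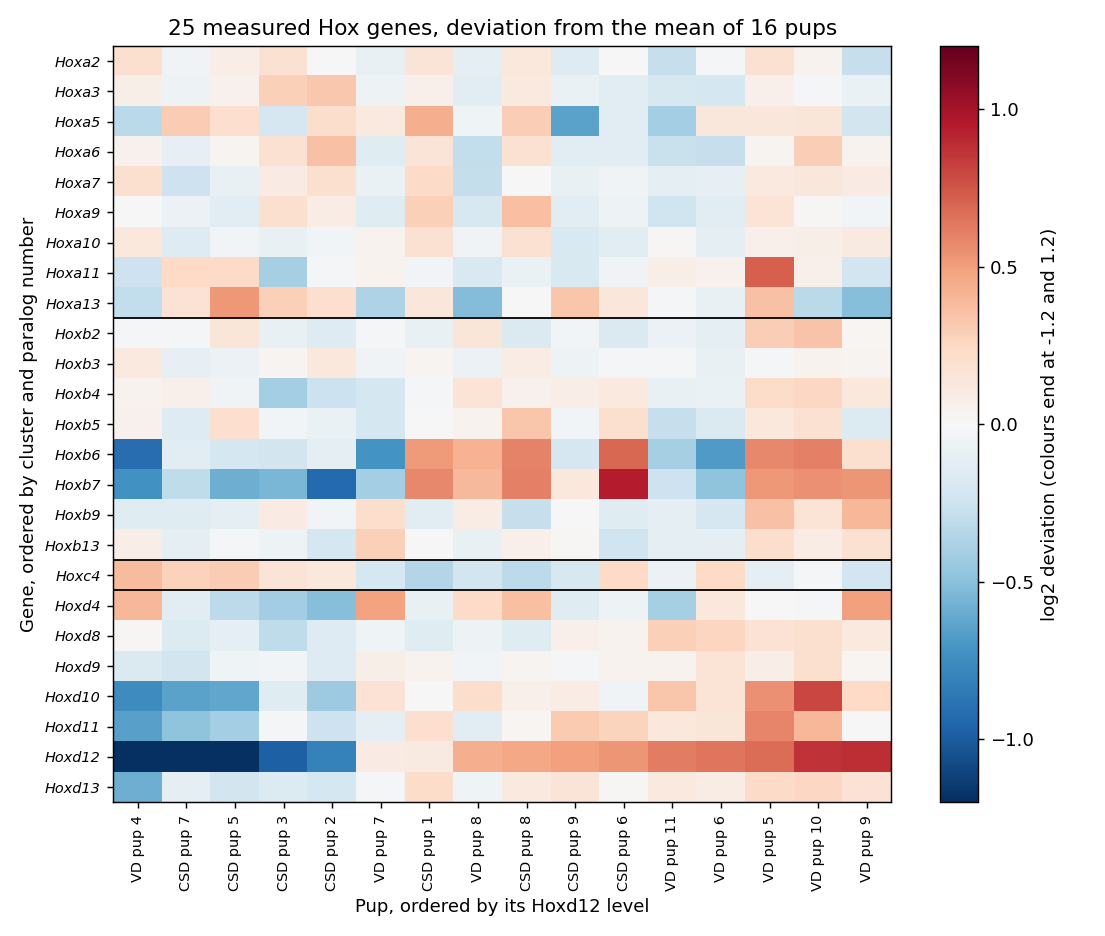
Deviation of 25 of the 26 measured Hox genes (rows, by cluster and paralog number) from its mean over the 16 pups (columns, ordered by Hoxd12), in log2 units with red above and blue below the mean. The 5 pups at the left, with Hoxd12 from 8.16 to 8.83, are also blue for Hoxd10 and Hoxb7, and 4 of them are among the 5 lowest of Hoxb7.

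In HoxB the adjacent genes Hoxb6 and Hoxb7, both central genes, gave the closest relation. Hoxb6 was 7.35 in VD pup 4, 7.55 in VD pup 7, 7.58 in VD pup 6 and 7.87 in VD pup 11, and reached 8.95 in CSD pup 6. Hoxb7 was lowest in CSD pup 2 (7.98) and VD pup 4 (8.19) and also highest in CSD pup 6 (9.86). For this pair r was 0.85 and rho 0.80 (permutation p = 0.00013 and 0.00034, adjusted p of r = 0.0065, n = 16). It was 0.88 within CSD pups, 0.98 within VD pups, 0.90 on slide 1 and 0.78 on slide 2. In the 11 pups with high Hoxd12 r was 0.96. Hoxb7 also went with Hoxd13 (r = 0.70, rho = 0.74, permutation p = 0.0015 for both, adjusted p of r = 0.032, n = 16), with r of 0.82 within CSD and 0.68 within VD pups, 0.93 on slide 1, 0.52 on slide 2 and 0.30 in the males. Hoxb6 differed between the groups by 0.28 (95% interval -0.28 to 0.84), with 0.11 without VD pup 4 and 0.48 without VD pup 5, and Hoxb7 by 0.09 (-0.51 to 0.70), and neither passed the adjusted test.

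In HoxA the 5 pairs that passed were among Hoxa2, Hoxa3, Hoxa6, Hoxa7 and Hoxa9. The closest was Hoxa3 and Hoxa6, with r of 0.84 and rho of 0.87 (permutation p = 4.0e-05 for both, adjusted p of r = 0.0030, n = 16), with 0.93 within CSD and 0.76 within VD pups, 0.53 on slide 1 and 0.98 on slide 2. Hoxa13 was in none of these pairs. Its r with Hoxd13 was -0.04 and with Hoxb13 -0.33, and its 1 relation that passed adjustment was a negative one with Hoxd4 (r = -0.73, rho = -0.70, permutation p = 0.0015 for r, adjusted p = 0.032, n = 16), which was -0.64 within CSD and -0.61 within VD pups, -0.75 on slide 1, -0.72 on slide 2 and -0.66 without VD pups 8 and 9. The 3 measured genes of paralog group 13 thus had no relation between them that passed adjustment.

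**Figure D5:**
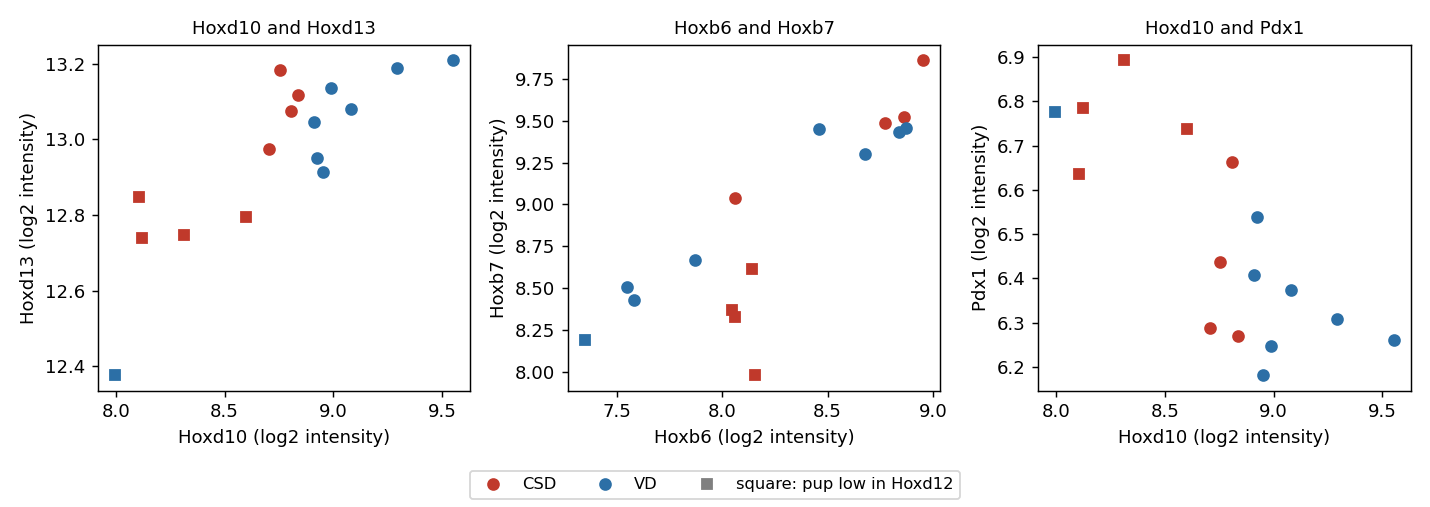
Levels (log2 intensity) of Hoxd10 against Hoxd13, Hoxb6 against Hoxb7 and Hoxd10 against Pdx1 in the 16 pups, CSD in red and VD in blue, with squares for the 5 pups low in Hoxd12. The squares lie at the low end of Hoxd10 and Hoxd13. For Pdx1 they lie toward the high end, between 6.64 and 6.89, with the circle of CSD pup 8 (6.66) among them.

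The genes in this and the next paragraph were named after their values were seen. Among all measured genes, those most like Hoxd10 over the 16 pups were led by other HoxD genes. Out of 21456 other genes Hoxd12 had rank 1 (r = 0.90), Hoxd9 rank 4, Hoxd11 rank 5 and Hoxd13 rank 12. Taf9, a subunit of the general transcription factor TFIID, had rank 2 (r = 0.87), and Inhba, which encodes an activin subunit, had rank 6 (r = 0.85). The genes that ran most opposite were Cldn15 (r = -0.91), a pore-forming claudin of the intestinal epithelium, Dpep1 (-0.89), a brush border dipeptidase, Slc13a2 (-0.87), a carrier of dicarboxylates, Hao2 (-0.86) and Tmigd1 (-0.85). Slc9a3, the sodium-proton exchanger of the brush border, had r = -0.84. These genes were picked from all measured genes by their r, so no test is given. In the 5 pups low in Hoxd12, Slc9a3 ran from 8.82 to 9.69 and Dpep1 from 10.18 to 11.69. In the others Slc9a3 ran from 7.32 to 8.99 and Dpep1 from 9.01 to 10.32, so both sets overlapped.

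For Hoxa13 the likest genes were not Hox genes among the first 10. Prpf38b (r = 0.92) and Luc7l3 (0.88), which encode splicing proteins, were at ranks 1 and 4, and Cirbp, a cold-inducible RNA-binding protein, ran most opposite (r = -0.91). Prpf38b differed between the groups by 0.45 (adjusted p = 0.060 by limma) and Cirbp by -0.40 (adjusted p = 0.094 by limma).

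The level of Hoxd10 was also set beside lists of markers and regulators, in 25 relations over the 16 pups. The same 25 relations were computed for Hoxa13 and adjusted apart. None of those passed (smallest adjusted permutation p = 0.38), and the values below are those of Hoxd10. The ParaHox genes are relatives of the Hox genes that pattern the gut, and Cdx1 and Cdx2, the caudal homologues, activate Hox genes in the embryo. Of 6 genes in this list Cdx1, Cdx2 and Pdx1 were measured. Pdx1, a gene of duodenum and pancreas that was well above background on 15 of 16 arrays, ran against Hoxd10 (r = -0.77, rho = -0.76, permutation p = 0.00041 and 0.00098, adjusted p of r = 0.010, n = 16). Leaving out VD pups 4 and 10 gave r = -0.74, and r was -0.65 within CSD pups and -0.81 within VD pups. It was -0.75 on slide 1, -0.87 on slide 2 and -0.55 in the males. Pdx1 was dim, from 6.18 to 6.89, and Hoxb1, which was on 0 arrays, reached 6.23. Cdx2 also ran against Hoxd10 (r = -0.67, rho = -0.72, permutation p = 0.0046 and 0.00215, adjusted p of r = 0.038, n = 16). Its r was -0.55 without the same 2 pups, -0.33 within CSD and -0.65 within VD pups. It was -0.70 and -0.64 on the slides and -0.51 in the males. In the 11 pups with high Hoxd12, again over a narrower range of Hoxd10, r was -0.33 for Pdx1 and -0.40 for Cdx2. Cdx1 had r = -0.25.

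No list of tissue or cell type markers passed adjustment with Hoxd10. The smooth muscle list (10 of 10 genes measured, Tagln with the highest signal) had r = 0.64 and rho = 0.54 with Hoxd10 (permutation p = 0.0082 and 0.033, adjusted p of r = 0.051, n = 16), and all 10 of its genes had a positive r, between 0.20 for Myh11 and 0.69 for Acta2. Its mean deviation was -0.04 ± 0.18 in CSD and 0.04 ± 0.17 in VD pups (SD, n = 8 each). Smtn had the smallest p of the list between CSD and VD (-0.19, adjusted p = 0.27 by limma), followed by Acta2 (-0.17). The mean deviation was lowest in CSD pup 7 (-0.28) and highest in VD pup 5 (0.32). Within CSD pups the r with smooth muscle was 0.73, within VD pups 0.55, on slide 1 0.85 and on slide 2 0.50. The epithelium list had r = 0.17, the immune list 0.21, the colon list -0.54 and the small intestine list -0.52 (permutation p adjusted over 25 relations = 0.83, 0.82, 0.16 and 0.16, n = 16). For the colon list r was 0.21 within CSD and -0.83 within VD pups, and for the small intestine list -0.24 and -0.57. The list of 12 housekeeping genes, led in signal by Actb, had r = 0.50 and rho = 0.48 (permutation p = 0.052 and 0.061, adjusted p of r = 0.18, n = 16). Its r was 0.63 without VD pups 4 and 10, 0.74 within CSD and -0.02 within VD pups, and 0.55 and 0.31 on the slides. Of its genes 9 had a positive r with Hoxd10, up to 0.65 for Ppia. The share of spots well above background on each array had r = -0.01 with Hoxd10. The part of smooth muscle and of the housekeeping genes in the variation of Hoxd10 was not tested. The immune list, led in signal by Jchain, had a mean deviation of -0.23 ± 0.34 in CSD and 0.23 ± 0.28 in VD pups (SD, n = 8 each), with 0 of 10 genes called and 4 lower at an unadjusted p under 0.05, against 21.4% of all measured genes in either direction. Cd79a, a chain of the B cell receptor complex, had the smallest p (-0.47). Its part in the differences of the Hox genes was not tested. In bulk tissue, fewer cells of a type and less RNA per cell cannot be told apart.

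Hox proteins bind DNA with TALE cofactors (the Pbx, Meis and Pknox proteins), and their clusters are kept active by trithorax complexes, while retinoic acid acts on the 3′ genes. Of 9 TALE genes 8 were measured and 0 were called between CSD and VD. Meis3 had the smallest p (-0.15, adjusted p = 0.15 by limma), followed by Pbx4 (-0.11), which was not measured. Of 12 trithorax genes 1 was called, with 1.25% of all genes. It was Dpy30, a shared subunit of the histone H3 methyltransferases, which was higher by 0.22 (adjusted p = 0.028 by limma). In the list of 20 gut patterning genes 1 was called, with the same 1.25% of all genes: Bmp4, a mesenchymal signal, was lower by -0.28 (adjusted p = 0.045 by limma). None of 17 retinoic acid genes was called (0 of 17), and Rara, a retinoic acid receptor, had the smallest p (-0.27, adjusted p = 0.10 by limma), followed by Stra6 (0.83, adjusted p = 0.22). The median differences were -0.05 for the TALE, 0.08 for the trithorax, -0.03 for the gut patterning and -0.00097 for the retinoic acid list.

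The genes that flank the clusters were described in the same way. Of the 8 neighbours of HoxD on the array 7 had higher fitted means in CSD (median 0.07), and 0 were called. Mtx2 had the smallest p (0.12, adjusted p = 0.16 by limma), followed by Hnrnpa3 (0.20). Beside HoxC 2 of 7 genes were called, with 1.25% of all genes. Smug1, a DNA repair glycosylase, was called higher (0.16, adjusted p = 0.031 by limma) and Nfe2, an erythroid factor, lower (-0.31, adjusted p = 0.013 by limma). Of the 7 flanks of HoxA and the 6 of HoxB 0 were called. Hibadh (-0.05) and Tax1bp1 (0.05) had the smallest p beside HoxA, and Cbx1 (0.17, adjusted p = 0.069 by limma) and Skap1 (-0.20) beside HoxB. With Hoxd10 the mean of the HoxD flanks had r = -0.26 and rho = -0.45 over the 16 pups (permutation p = 0.33 and 0.081, adjusted p of r = 0.75).

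Males and females were compared in the same model. Of 39 Hox genes 0 were called, with 0.0599% of all genes, and 6 had an unadjusted p under 0.05 (15.4%), with 6.45% of all genes. They were Hoxa2, Hoxa3, Hoxa6 and Hoxa7, which were lower in males by -0.20, -0.20, -0.19 and -0.21, and Hoxd12, which was higher in males by 0.88 (adjusted p = 0.72 by limma), besides Hoxc12, which was not above background. Of the 6 females 4 were among the pups low in Hoxd12, and of the 10 males 1 was. The VD group held 2 females, so sex and group were unevenly mixed. The interaction of delivery mode with sex gave 0 Hox genes, with 0.00272% of all genes. At an unadjusted p under 0.05 by limma it gave 1 of 39 Hox genes (2.56%), Hoxb4, against 1732 of 36709 genes. Litters of the same delivery mode were compared too, and 0 Hox genes were called between mothers 4 and 3 (0.0872% of all genes) or mothers 6 and 5 (0.874%). At an unadjusted p under 0.05 by limma there were 0 Hox genes in either, against 2823 and 4230 of all 36711 genes. Of the 26 measured Hox genes 22 had lower and 4 higher fitted means in the pups of mother 6 than of mother 5. Their median difference was -0.09, with -0.0064 for all measured genes. Between mothers 4 and 3 there were 12 higher and 14 lower. The largest fitted difference between litters was -0.53 for Hoxb7, lower in the pups of mother 6.

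Promoters of a pair of neighbouring HoxD genes are shown because their levels ran together over the pups. The letters TTTAT, the core of the site that caudal proteins bind, were searched on both strands in the 250 bases before the start of each gene (RefSeq, GRCm38.p6, in which 24 promoters of 22 Hox genes were present). They were in 9 of 24 Hox promoters (37.5%) and in 37.3% of all 32851 promoters. Hoxd13 had 2 matches that overlap, on opposite strands and in capitals below, and Hoxd10 and Hoxd12 had 0, which says only that these letters are not in these windows. The GC content was 74.4% before Hoxd13 and 55.6% before Hoxd12, with a median of 52.4% over all promoters.
Hoxd13, chr2:74667975-74668224, plus strand: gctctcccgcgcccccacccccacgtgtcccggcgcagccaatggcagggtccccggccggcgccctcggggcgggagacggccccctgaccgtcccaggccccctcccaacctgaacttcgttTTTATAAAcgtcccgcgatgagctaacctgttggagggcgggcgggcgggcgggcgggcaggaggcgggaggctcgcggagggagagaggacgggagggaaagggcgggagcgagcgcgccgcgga
Hoxd12, chr2:74674763-74675012, plus strand: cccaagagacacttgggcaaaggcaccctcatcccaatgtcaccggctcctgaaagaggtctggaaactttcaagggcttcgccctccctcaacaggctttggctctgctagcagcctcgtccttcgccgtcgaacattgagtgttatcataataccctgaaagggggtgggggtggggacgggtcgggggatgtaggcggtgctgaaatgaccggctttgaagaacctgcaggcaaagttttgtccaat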

How the data were processed

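Colon RNA of 16 pups was hybridised by the authors to 1-colour arrays read with Agilent Feature Extraction 12.0.3.2. The deposited files hold spot intensity and background intensity on a linear scale, and the deposited gene matrix holds the authors' processed values on the log2 scale. The submitters' processing notes name limma 3.38. Here intensities were corrected with normexp (offset 50), taken to log2 and quantile normalised (R 4.3.3, limma 3.58.1). Spots were averaged per probe. Probes above the array's 5% quantile on at least 4 arrays were averaged by gene name, which left 36711 genes. The limma model had fixed terms for delivery mode and for sex, and mothers entered as random blocks (correlation 0.0152), with Benjamini-Hochberg adjustment at 0.05. The number of arrays and litters limits the precision. Between 58.7% and 64.9% of spots per array were well above background, and 0 were saturated. Named genes were those called or, up to 8, those with the smallest p, the 3 with the widest range, the ends of each cluster, paralog 13 and genes whose probes disagreed in sign. In other lists they were the called genes or the 2 with the smallest p. The members and lists were chosen with earlier results of these data known. A few genes of the array, and results that need them, are not reported here. The fit and the correlations were tested on simulated data. The alternatives changed background, normalisation, filter, model, samples and input. Relations between genes under those alternatives were added after the data were seen.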

Additional observations from a re-analysis of the deposited data

Results flagged for a closer look

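In 66 groups of 8 pups, 1 per gene and delivery mode, the highest and the lowest pup were compared with the next one as a share of the group's range. In 7 groups this share passed the 95% critical value of Dixon's test. About 1 normally distributed group in 20 passes it by chance. The share over all genes was not computed, so no excess is read for these genes. VD pup 4 was the lowest VD pup for Hoxd10 (7.995), Hoxd12 (8.164) and Hoxd13 (12.38), which are neighbours in the HoxD cluster. The levels of these genes ran together over the pups, so their groups are not independent. VD pup 5 was the highest VD pup for Hoxa11 (10.58). CSD pup 5 was the highest CSD pup for Hoxb2 (7.423). For Hottip, the noncoding gene at the 5′ end of HoxA, CSD pup 8 was the highest CSD pup (8.889) and VD pup 4 the highest VD pup (8.145).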

How the results depend on the processing

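The count of 0 called Hox genes held in 34 of 38 alternatives. It was 1 without sex in the model (Hoxa13), without VD pup 5 (Hoxa13), without the litter of mother 6 (Hoxd8) and at an adjusted p under 0.1 (Hoxa13), and ranged from 0 to 1 when single pups were left out. Over all genes the 460 calls became 102 and 243 with normexp offsets of 0 and 16, 177 with the processed signal after quantile normalisation, 164 with it minus the 75th percentile, 170 in the deposited matrix, 992 without sex, 0 with litter means, 0 in males only, 11 on slide 1, 0 on slide 2, 0 with the replicate block and 1126 at an adjusted p under 0.1. Without single pups they ranged from 145 (VD pup 4) to 617. Without the litters of mothers 3, 4, 5 and 6 they were 212, 138, 189 and 2265. The causes were not tested. The pup numbers 5 to 9, which both groups have, did not pair the pups: correlations of same-numbered pups were 0.0828, 0.258, 0.00398, -0.0613 and 0.0631. Sex could not be estimated beside the number in that fit.

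No reversal concerned a called gene. On slide 2 alone the differences were 0.0279 for Hoxb9, 0.13 for Hoxd12, -0.0326 for Hoxc4, 0.15 for Hoxd13 and 0.27 for Hoxd11, and on slide 1 alone -0.19 for Hoxb7 and 0.0145 for Hoxb3. Without sex they were -0.0292 for Hoxb7 and 0.0124 for Hoxb3. In males only Hoxb3 was 0.0030, and it was 0.0245 with litter means and 0.0096 with the replicate block. With the processed signal minus the 75th percentile Hoxd13 was 0.0302. With probes well above background on 8 or more arrays Hoxd13 was 8.2e-05. Without single pups the differences ranged from -0.05 to 0.31 for Hoxb7, from -0.03 to 0.11 for Hoxc4, from -0.118 to 0.0837 for Hoxd13, from -0.02 to 0.02 for Hoxb3 and from -0.21 to 0.10 for Hoxd11. Without a litter, Hoxb7 was -0.0811 (mother 6) and 0.514 (mother 5), Hoxc4 -0.06 (mother 4), Hoxd13 0.02 (mother 4) and 0.03 (mother 5), Hoxb3 0.0464 (mother 5) and -0.0282 (mother 6) and Hoxd11 0.06 (mother 5).

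The lowest r among Hoxd10, Hoxd11 and Hoxd13 (0.84) lay between 0.81 and 0.86 without single pups and was 0.465 without the 5 pups low in Hoxd12 (n = 11), a set read from the values, where the range of Hoxd10 is narrower because these were its 5 lowest pups. That of Hoxb6 and Hoxb7 stayed between 0.784 and 0.976 in 30 alternatives. Dim genes of HoxC gave no level here.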
